A study of Caenorhabditis elegans with 6 samples.

Results

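The genes described here encode the *C. elegans* dosage compensation complex and the switch that decides whether it is built. They were taken by name, 10 genes in all, of the 19973 nuclear protein-coding genes of the Ensembl annotation (release 115) of the WBcel235 assembly, which is the ce11 assembly of the peak files. For each gene, every ATAC-seq peak that lay in the gene body or within 500 bp of the gene 5′ end was recorded. ATAC-seq uses the Tn5 transposase to insert sequencing adapters into open DNA, and sites where many fragments end are called as peaks. The assay was performed on isolated germ nuclei (IGN) of 3 *prde-1* mutant samples, *prde-1(mj207)V*, strain SX2499, and 3 wild type samples, strain VC2010, all from young adults grown at 20°C. PRDE-1 is a germline component of the complex that drives transcription of piRNA genes. The mutant strain becomes progressively sterile and was crossed back to N2 before use, and mutant animals reached the harvested stage later than wild type animals, so that genotype and hours of growth cannot be told apart.

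Each genotype has 1 deposited list of peaks, which pools its 3 samples. The *prde-1* list holds 9674 peaks and the wild type list 13996. No value below therefore carries a replicate error, no difference between the lists could be tested, and the read depth behind each list is unknown. Peaks were ranked within a list by the area score of the peak caller, which rises with −log10 p along the peak and with its width. The formula of the score was not recomputed here. A rank is also given as a percentage of its list, so that 0 is the strongest end and 100 the weakest. Ranks rather than scores are set side by side, since the scores depend on the depth of their own list, and a site absent from a list may have been just too weak to be called. In such bulk lists, fewer nuclei with an open site and less opening in each nucleus cannot be told apart. The mutated gene *prde-1* itself had 0 peaks in either list. Of 16 germline marker genes, 10 had a peak at the 5′ end in the *prde-1* list and 12 in the wild type list, while *him-3* and *syp-1*, which encode proteins of meiotic chromosome axes and synapsis, had a peak in neither. Of 27 somatic marker genes, 13 had a 5′ end peak in the *prde-1* list and 16 in the wild type list. In the *prde-1* list these included 4 of 5 body muscle, 5 of 6 intestine and 1 of 5 hypodermis genes. In the wild type list 5, 4 and 4 genes of these groups had one. Of the other groups, 2 of 5 neuron, 1 of 3 pharynx and 0 of 3 spermatheca and sheath genes had one in both lists. Over all protein-coding genes the share with a 5′ end peak was 25.1% in the *prde-1* list and 30.6% in the wild type list. Some marker genes were counted through a best peak whose summit was nearer to the 5′ end of another protein-coding gene. These were *pgl-3*, *csr-1* and *prg-1* in both lists. In the wild type list they also included *oma-2*, *vit-2*, *vit-6* and *bli-1*. The part of somatic nuclei in the results below was not tested.

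Dosage compensation lowers transcription from both X chromosomes of XX hermaphrodites to match the output of the X of XO males. SDC-2, made in XX animals, brings a condensin complex to X together with SDC-1, SDC-3 and DPY-30. The condensin is formed by the SMC proteins DPY-27 and MIX-1 and by DPY-26, DPY-28 and CAPG-1. DPY-21 joins it and removes a methyl group from lysine 20 of histone H4. In XO embryos the switch gene *xol-1* is active and keeps *sdc-2* off. The process acts in somatic cells, whereas in the germ line X genes are held low by other means, in part by the MES proteins. MIX-1, DPY-26, DPY-28 and CAPG-1 also serve in a condensin that acts on all chromosomes during cell division, and DPY-30 also serves in COMPASS, a complex that methylates histone H3.

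The DNA under the summits of the strongest 5′ end peaks is shown first, since these sites are what the lists report for the genes. The runs below are the 121 bases centered on the wild type summit for the 4 genes whose 5′ end peak ranked highest in the wild type list, read 5′ to 3′ on the strand of the gene from the RefSeq sequence of WBcel235 (ce11). The dpy-27 run lies at chrIII:3820245-3820365 on the minus strand, and the runs of sdc-2, sdc-1 and dpy-30 lie at chrX:11522166-11522286, chrX:16275410-16275530 and chrV:12191076-12191196 on the plus strand. Capitals mark any match, on either strand, to the motifs searched, which were TTTCAG, the usual end of a trans-splice acceptor, GCGGGA, the core of an E2F-type site, and GAGAGA.
dpy-27: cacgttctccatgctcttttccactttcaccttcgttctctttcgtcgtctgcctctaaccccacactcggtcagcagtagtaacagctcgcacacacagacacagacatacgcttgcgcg
sdc-2: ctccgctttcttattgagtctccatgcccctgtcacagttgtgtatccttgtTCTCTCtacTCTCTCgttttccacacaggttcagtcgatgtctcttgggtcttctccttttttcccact
sdc-1: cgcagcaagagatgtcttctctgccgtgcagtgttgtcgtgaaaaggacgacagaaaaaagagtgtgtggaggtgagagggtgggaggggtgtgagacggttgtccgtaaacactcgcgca
dpy-30: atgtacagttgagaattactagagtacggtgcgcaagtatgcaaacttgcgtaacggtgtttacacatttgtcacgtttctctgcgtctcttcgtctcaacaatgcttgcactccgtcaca
The sdc-2 run holds 2 copies of TCTCTC, the reverse of GAGAGA, and the other runs hold no match.

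The xol-1 and dpy-26 runs, chosen after their values were seen, show the weakest 5′ end peak of the set and the run with matches to 2 of the motifs. They lie at chrX:8041132-8041252 on the plus strand and chrIV:12451376-12451496 on the minus strand, with the same use of capitals.
xol-1: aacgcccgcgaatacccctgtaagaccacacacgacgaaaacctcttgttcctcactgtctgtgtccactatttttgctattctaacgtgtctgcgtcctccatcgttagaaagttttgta
dpy-26: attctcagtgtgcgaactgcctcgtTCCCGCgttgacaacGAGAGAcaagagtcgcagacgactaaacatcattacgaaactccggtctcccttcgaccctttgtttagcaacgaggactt
The dpy-26 run holds TCCCGC, the reverse of GCGGGA, followed by GAGAGA. Over all 13996 wild type peaks, 5.92% of such summit windows hold GCGGGA on either strand, 26.9% hold GAGAGA and 5.61% hold TTTCAG.

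In *C. elegans* many gene 5′ ends are trans-splice sites, at which a spliced leader replaces the start of the transcript, so that the annotated 5′ end can lie downstream of the site where transcription begins. The 30 bases just before the annotated 5′ end are shown for the 4 genes in which they end in AG, with that acceptor, or the whole TTTCAG, in capitals. The sdc-3 run lies at chrV:15048208-15048237 and the dpy-27 run at chrIII:3819680-3819709, both on the minus strand, and the dpy-30 run at chrV:12191489-12191518 and the dpy-28 run at chrIII:10763101-10763130, both on the plus strand.
sdc-3: atttgctttcaagattaaattcaaTTTCAG
dpy-27: atatttatcaaaattaattcctttTTTCAG
dpy-30: gatatctcaataattttatacttgTTTCAG
dpy-28: tttttaaaaactaatttcccccttctacAG
TTTCAG stood directly before the 5′ end in 3 of the 10 genes, against 12.3% of all protein-coding genes, and AG in 4 of 10, against 27.6%. In *sdc-1* and *sdc-2* TTTCAG began at position 0, the annotated 5′ end itself, and in *dpy-21* at position 5. A further annotated transcript start of *sdc-1* lies at position 6. These matches are a description of the letters, since no transcript ends were measured.

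Of the 10 genes, 9 had a peak at the 5′ end or in the body in the *prde-1* list and 9 in the wild type list, against 31.2% of all protein-coding genes in the *prde-1* list and 39.4% in the wild type list. The same 9 genes had one in both lists, and *dpy-28* had none in either. Counting only peaks that touched the 500 bp on either side of the 5′ end, 8 of 10 genes had a peak in the *prde-1* list and 8 in the wild type list, against 25.1% of all protein-coding genes in the *prde-1* list and 30.6% in the wild type list. The same 8 genes were counted in both, with *dpy-21* the gene that had a peak only in its body. Long genes have more room for a peak in the body, and 59.1% of genes over 10 kb had a peak at the 5′ end or in the body in the *prde-1* list and 73.0% in the wild type list. Of genes on X, 22.3% had a 5′ end peak in the *prde-1* list and 28.6% in the wild type list, against 25.6% of autosomal genes in the *prde-1* list and 30.9% in the wild type list, while all 3 of the X-linked genes of the set, *sdc-1*, *sdc-2* and *xol-1*, had one in both.

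**Figure D1:**
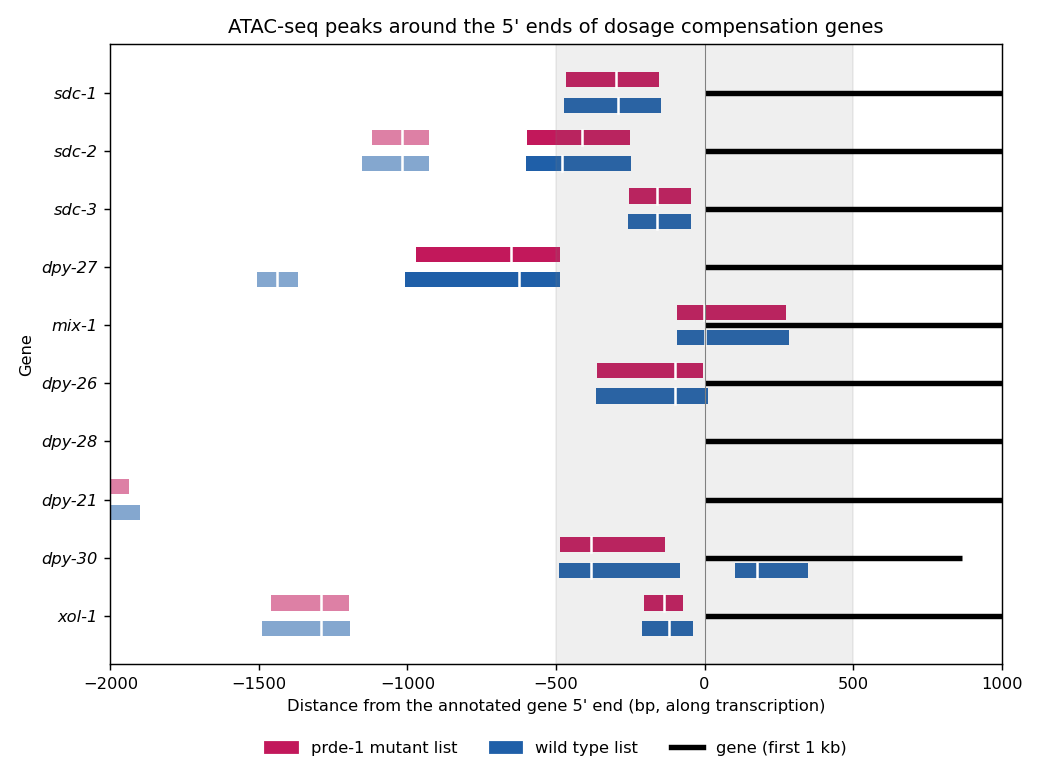
Peaks around the annotated 5′ ends of the 10 genes, with distance from the 5′ end along transcription in bp on the x axis and 1 gene per row (upper bars, *prde-1* list; lower bars, wild type list; white ticks, summits; pale bars, peaks outside the 500 bp window, which is shaded). The *prde-1* and wild type bars of a gene nearly coincide in 8 genes, *dpy-30* has a further peak in the wild type list only, and *dpy-28* and *dpy-21* have none inside the shaded window.

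The strongest 5′ end peak of the set belonged by position to *dpy-27*, the SMC protein that sets this condensin apart from the others. It spanned chrIII:3820166-3820649 in the *prde-1* list, with rank 314 (3.25% down the list) and a −log10 p of 30.2 at the summit, and chrIII:3820165-3820687 in the wild type list, with rank 494 (3.53%) and a −log10 p of 41.6. The peak began 487 bp before the *dpy-27* 5′ end in the *prde-1* list and 486 bp before it in the wild type list, just inside the window, and the summits lay 652 bp before it in the *prde-1* list and 626 bp before it in the wild type list. The gene itself runs from 3813018 to 3819679 on the minus strand of chromosome III. No other protein-coding 5′ end was nearer, but the ncRNA gene R13G10.5 began 58 bp from the *prde-1* summit and 32 bp from the wild type summit, so that this peak may belong to it. The divergent neighbor *amx-1*, across a gap of 2723 bp, had its own peak, of rank 2175 in the *prde-1* list and 2459 in the wild type list. A weak peak between them, with its summit at position −1440 from the *dpy-27* 5′ end, was in the wild type list only, at rank 11769.

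*mix-1*, the other SMC protein of the complex and a partner in every condensin of the worm, runs from 10824246 to 10841424 on the plus strand of chromosome II and had 3 peaks in both lists. At its 5′ end the peak spanned chrII:10824152-10824521 in the *prde-1* list, with rank 3551 (36.7%), and chrII:10824152-10824530 in the wild type list, with rank 4934 (35.3%). Its summit lay 1 bp before the 5′ end in the *prde-1* list and on its first base, in the 5′ UTR, in the wild type list. The same peak lies in the window of the divergent gene R06F6.12, which starts 165 bp upstream. The nearest 5′ end to the summit was that of *mix-1*, but whether the peak also belongs to R06F6.12 cannot be told from the position. The other peaks were in the distal part of the gene. In a coding exon, a peak with its summit 15994 bp into the gene had rank 1509 (15.6%) in the *prde-1* list, and its counterpart, with the summit at 15993 bp, had rank 1580 (11.3%) in the wild type list. This was the highest-ranked peak of *mix-1*, and its summit lay 77 bp from the start of the snoRNA gene M106.6 in the *prde-1* list and 78 bp from it in the wild type list. In an intron, a peak had rank 7162 (74.0%) and a width of 177 bp in the *prde-1* list and rank 6289 (44.9%) and a width of 247 bp in the wild type list. The nearest protein-coding 5′ end to both of these distal peaks was that of M106.8, at least 3387 bp away.

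The remaining condensin genes differed from each other. *dpy-26*, the kleisin that closes the ring between the SMC proteins, runs from 12445801 to 12451335 on the minus strand of chromosome IV. Its peak spanned chrIV:12451340-12451696 in the *prde-1* list (rank 3269, 33.8%) and chrIV:12451325-12451700 in the wild type list (rank 4189, 29.9%). Both summits were at the same base, 101 bp before the 5′ end. The peak lay, apart from a few bases of the wild type one, in the 727 bp between *dpy-26* and *spe-44*, the gene upstream on the same strand, whose own 5′ end had no peak in either list. *dpy-28*, a HEAT repeat subunit, runs from 10763131 to 10777076 on the plus strand of chromosome III and had no peak at its 5′ end or in its 13946 bp in either list. It starts 109 bp downstream of *tasp-1*, on the same strand. The 5′ end of *tasp-1*, at position −3824 from that of *dpy-28*, had a peak of rank 389 in the *prde-1* list and 752 in the wild type list. Among the 1907 protein-coding genes with up to 200 bp to an upstream gene on the same strand, 13.9% had a 5′ end peak in the *prde-1* list and 20.8% in the wild type list. Genes that lie so close in tandem are often in operons, but no operon annotation was used here.

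The genes that bring the condensin to X all had a peak upstream of the 5′ end in both lists. *sdc-2*, the XX-specific factor on which the assembly on X depends, runs from 11522707 to 11533450 on the plus strand of X. Its peak spanned chrX:11522108-11522456 in the *prde-1* list, with rank 821 (8.49%) and a −log10 p of 22.5, and chrX:11522107-11522461 in the wild type list, with rank 1313 (9.38%) and a −log10 p of 28.8. The edges nearly coincided, while the summits were 67 bp apart, 414 bp before the 5′ end in the *prde-1* list and 481 bp before it in the wild type list. A weaker peak stood farther upstream, outside the window, with its summit 1019 bp before the 5′ end at rank 6113 in the *prde-1* list and 1017 bp before it at rank 6666 in the wild type list. With piRNA genes left out of the search, no other gene 5′ end was nearer to either of these sites. The divergent neighbor *hpo-34* lay across a gap of 3640 bp.

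*sdc-1*, a zinc finger protein of the complex, runs from 16275763 to 16282534 on the plus strand of X. Its peak spanned chrX:16275295-16275610 in the *prde-1* list (rank 1203, 12.4%, 316 bp wide) and chrX:16275289-16275615 in the wild type list (rank 1716, 12.3%, 327 bp wide), with the summit 299 bp before the 5′ end in the *prde-1* list and 293 bp before it in the wild type list. The divergent neighbor *ifa-3* lies across a gap of 5693 bp and had no peak in either list. *sdc-3*, also a zinc finger protein, runs from 15039148 to 15048207 on the minus strand of chromosome V, and its peak was the narrowest of these, at 207 bp in the *prde-1* list (chrV:15048254-15048460, rank 2866, 29.6%) and 213 bp in the wild type list (chrV:15048252-15048464, rank 4110, 29.4%). Both summits were at the same base, 159 bp before the 5′ end. The gene upstream, *fbxa-82*, had no peak in either list.

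*dpy-30*, at 867 bp the shortest gene of the set, runs from 12191519 to 12192385 on the plus strand of chromosome V. Its upstream peak spanned chrV:12191031-12191387 in the *prde-1* list (rank 2196, 22.7%) and chrV:12191028-12191435 in the wild type list (rank 2685, 19.2%), with both summits at the same base, 383 bp before the 5′ end. The wild type list held a further peak of 247 bp at chrV:12191621-12191867, with its summit 176 bp into the gene in a coding exon, at rank 9179 (65.6%) and a −log10 p of 5.85. No *prde-1* peak overlapped it. It was the only peak of the 10 genes found in 1 list and not in the other.

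*dpy-21*, the histone demethylase of the complex, runs from 17936282 to 17949193 on the minus strand of chromosome V and had no peak within 500 bp of its 5′ end. It had a wide peak in the body instead, of 1852 bp in the *prde-1* list (chrV:17944663-17946514, rank 3969, 41.0%) and 2986 bp in the wild type list (chrV:17943529-17946514, rank 1653, 11.8%). Both lay wholly inside the same coding exon of 3412 bp and shared their upstream edge, 2679 bp into the gene. The summit was 3779 bp into the gene in the *prde-1* list and 4212 bp in the wild type list, a distance of 433 bp. The −log10 p at these summits was low, 3.9 in the *prde-1* list and 6.62 in the wild type list, so that ranked by it the peak stood 96.8% down the *prde-1* list and 60.9% down the wild type list. The area score also rises with width and places such a wide, low peak higher. The GC content of the peak was 56.8% in the *prde-1* list and 55.6% in the wild type list, against medians over all peaks of 43.5% in the *prde-1* list and 44.2% in the wild type list. Peaks of at least 2000 bp made up 0.848% of the *prde-1* list and 1.91% of the wild type list, and the 254 wild type peaks of that width with a counterpart had a median width ratio, *prde-1* over wild type, of 0.532, against 0.62 for the *dpy-21* peak. The nearest peak upstream of *dpy-21* was at rank 148 in the *prde-1* list and 174 in the wild type list. Its edge lay 1936 bp before the 5′ end in the *prde-1* list and 1900 bp before it in the wild type list. The wild type peak was 1579 bp wide and overlapped 2 *prde-1* peaks. These were the peak of rank 148, 657 bp wide, and a farther one of rank 4294, 652 bp wide. By position all of these peaks belonged to the divergent gene Y59A8B.24.

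**Figure D2:**
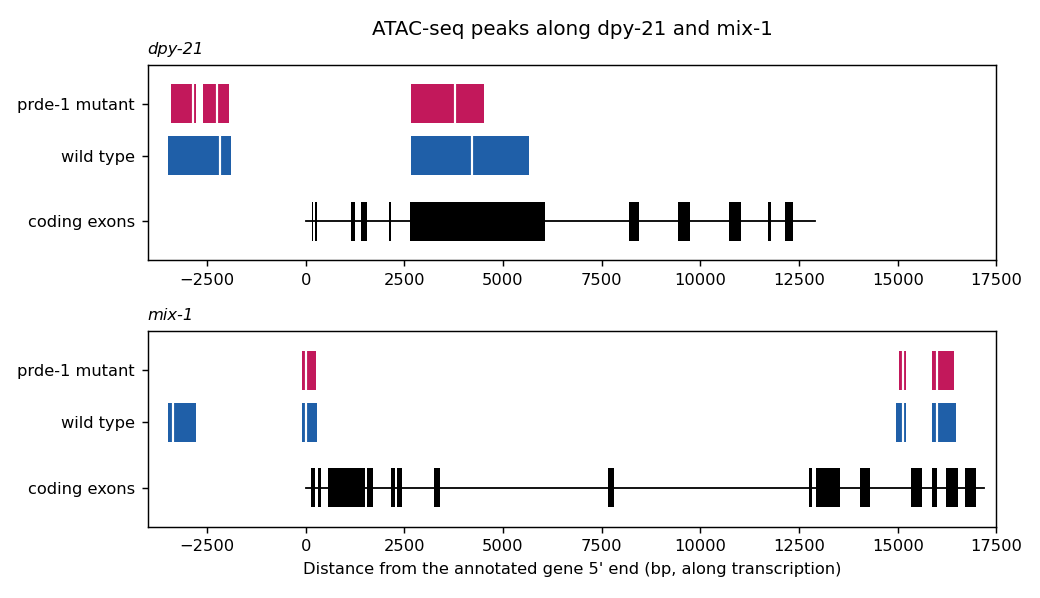
Peaks along *dpy-21* (upper panel) and *mix-1* (lower panel), with distance from the gene 5′ end in bp on the x axis, peaks of the *prde-1* and wild type lists as bars with white summit ticks, and coding exons in black. The *dpy-21* peak lies inside the long coding exon and is 1852 bp wide in the *prde-1* list and 2986 bp wide in the wild type list, and the distal *mix-1* peaks lie about 15 kb from the 5′ end.

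The switch gene *xol-1*, which belongs to the family of small-molecule kinases by its fold, runs from 8041313 to 8044409 on the plus strand of X and had the weakest peak of the set. In the *prde-1* list the peak was 133 bp wide (chrX:8041110-8041242), with its summit 136 bp before the 5′ end, an area score of 208.007, rank 9560 (98.8%) and a −log10 p of 4.55. In the wild type list it was 171 bp wide (chrX:8041104-8041274), with its summit 121 bp before the 5′ end, an area score of 499.185, rank 9796 (70.0%) and a −log10 p of 6.64. The lowest area score was 200.004 in the *prde-1* list and 200.005 in the wild type list, so that the *prde-1* peak stood just above the limit of the list. The ranks themselves were close, but they stand in lists of 9674 (*prde-1*) and 13996 (wild type) peaks. What lies behind the difference in percentages was not tested. A further peak outside the window ranked higher, at 6033 in the *prde-1* list and 5540 in the wild type list, with its summit 1290 bp before the 5′ end in both. With piRNA genes left out of the search, no other gene 5′ end was nearer to either site, and the gene upstream, C34D10.1, ends 9698 bp away.

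**Figure D3:**
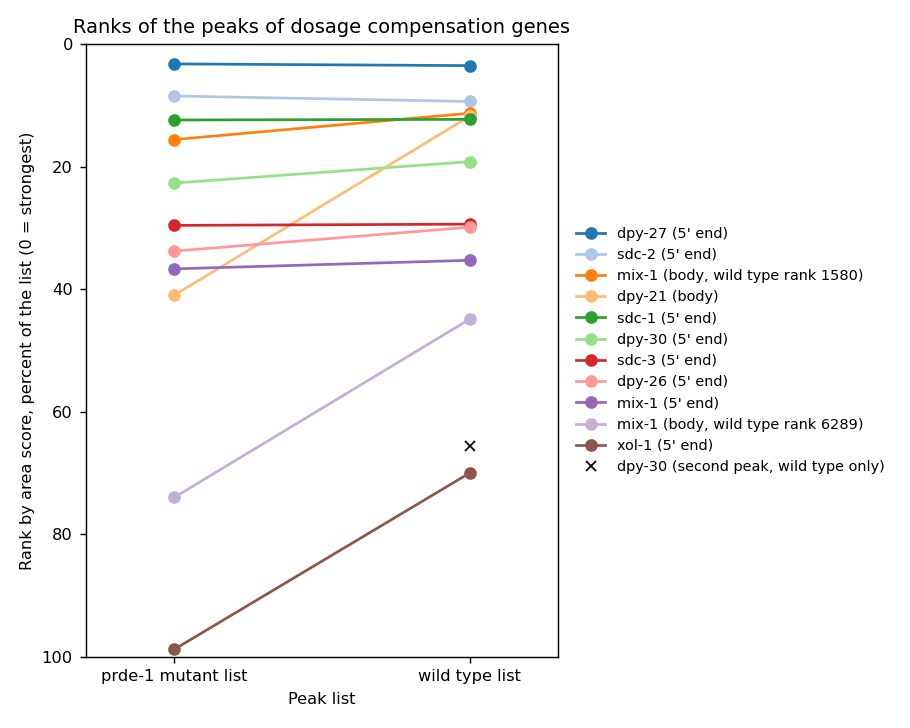
Rank of each peak of the 10 genes as a percentage of its list (y axis, 0 at the top is the strongest) in the *prde-1* list (left) and in the wild type list (right), with lines joining the peaks that overlap. Most lines are nearly flat, whereas *xol-1* (98.8% *prde-1*, 70.0% wild type), the intron peak of *mix-1* (74.0% *prde-1*, 44.9% wild type) and the body peak of *dpy-21* (41.0% *prde-1*, 11.8% wild type) have sloped lines, drawn over lists of unequal length, so that a slope is not a measured change.

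Over the set, the best peak of each gene stood at a median of 22.7% down the *prde-1* list and 12.3% down the wild type list (n = 9 genes), against medians over all protein-coding genes with a peak of 40.8% in the *prde-1* list and 35.5% in the wild type list. With 5′ end peaks alone the medians for the set were 26.2% in the *prde-1* list and 24.3% in the wild type list (n = 8), against 42.3% (*prde-1*) and 36.8% (wild type) over all genes. Within the set the best peaks ran from 3.25% to 98.8% in the *prde-1* list and from 3.53% to 70.0% in the wild type list, with *xol-1* the weakest in both. The summit of the best 5′ end peak lay upstream of the annotated 5′ end in 8 of 8 genes in the *prde-1* list and in 7 of 8 in the wild type list, against 83.8% (*prde-1*) and 77.3% (wild type) of all protein-coding genes with such a peak. Its median position from the 5′ end was −229 bp in the *prde-1* list and −226 bp in the wild type list, against −170 bp (*prde-1*) and −158 bp (wild type) over all genes.

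The peaks of the 10 genes were 11 in the *prde-1* list and 12 in the wild type list. All 11 of the *prde-1* peaks had a wild type counterpart, and 11 of the 12 wild type peaks had a *prde-1* counterpart, with the peak inside *dpy-30* the exception. Over the whole wild type list, 36.1% of peaks had no *prde-1* counterpart. With the wild type list divided by rank into 10 parts of equal size, that share was 0.5% in part 1, the strongest, 3.36% in part 3, 53.4% in part 7 and 89.9% in part 10. Of the 12 peaks of the set, 8 were in parts 1 to 3, and the peaks of *xol-1* and inside *dpy-30* were in part 7. The count for the set stands beside these shares as a description and is not read as a property of the genes. In the *prde-1* list as a whole, 1.91% of peaks had no wild type counterpart.

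**Figure D4:**
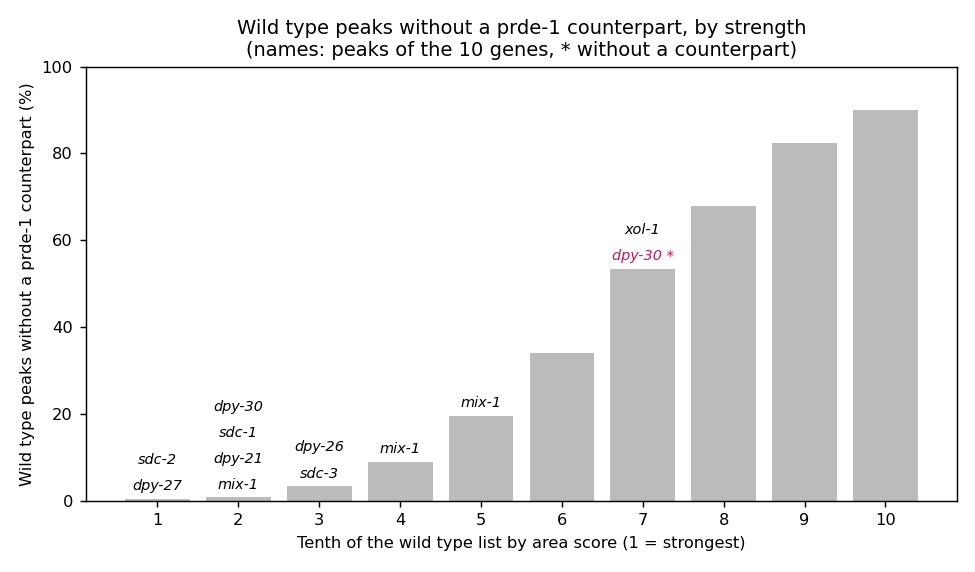
Share of wild type peaks without an overlapping *prde-1* peak (y axis, percent) in 10 parts of equal size of the wild type list by area score (x axis, 1 is the strongest), with the names of the genes whose peaks fall in each part and an asterisk for the peak without a counterpart. The share was 0.5% in part 1 and 89.9% in part 10, and 8 of the 12 peaks of the set stood in parts 1 to 3.

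The shared peaks of the set were narrower in the *prde-1* list, as were most shared peaks. The ratio of widths, *prde-1* over wild type, was below 1 for all 11 pairs, against 86.9% of all 8949 shared peaks, with a median of 0.925, a lowest value of 0.62 for *dpy-21* and a highest of 0.983 for *sdc-2*, against a median of 0.893 over all shared peaks. Summits were within 20 bp of each other in 8 of 11 pairs, with *dpy-27*, *sdc-2* and *dpy-21* beyond that, against 79.8% of all shared peaks, and the median shift was 6 bp, against 3 bp. The median width of the peaks was 357 bp in the *prde-1* list and 366 bp in the wild type list, against 290 bp (*prde-1*) and 334 bp (wild type) over all peaks.

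In the promoters, taken as the 250 bp before and the 50 bp after the 5′ end, GCGGGA was found on either strand in 3 of the 10 genes, *sdc-1*, *sdc-3* and *dpy-26*, at positions −227, −61 and −136 from the 5′ end, against 6.49% of all protein-coding genes. GAGAGA was found in 4 of 10, *sdc-3*, *dpy-26*, *dpy-28* and *xol-1*, against 21.8%, and TTTCAG in 6 of 10, against 51.7%. GAGAGA can overlap itself, as in *dpy-28*, where matches started 2 bases apart, and its start can overlap the end of GCGGGA, which was not the case in *sdc-3* or *dpy-26*, the promoters that held both. The matches to GCGGGA in all 3 genes lay within the peaks of those genes in both lists. A match is not evidence of binding.

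Other genes of the pathway were counted by list. CAPG-1, the remaining subunit of the condensin, had no peak at its gene in either list. Of the 4 subunits that belong to the other condensins only, *smc-4* and *hcp-6* had a 5′ end peak in both lists, and *capg-2* and *kle-2* had none. The *smc-4* peak was the stronger in both, with rank 3124 in the *prde-1* list and 3367 in the wild type list, but its nearest protein-coding 5′ end was that of F35G12.7. Among the signals that count X chromosomes and turn *xol-1* down, 2 of 3 had a 5′ end peak in both lists. These were *ceh-39*, a homeodomain protein, with rank 1310 in the *prde-1* list and 1326 in the wild type list, and *sex-1*, a nuclear hormone receptor. The best *sex-1* peaks were different sites, at position −297 with rank 5124 in the *prde-1* list, and 963 bp into the gene in a peak of 912 bp that reached the window, with rank 1301, in the wild type list. The RNA-binding protein gene *fox-1* had a peak in its body only. The autosomal signals *sea-1* and *sea-2*, which turn *xol-1* up, had no 5′ end peak in either list. *sex-2* and *sea-3* were not matched by name and were not counted.

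Of 7 genes that act downstream in sex determination, 4 had a 5′ end peak in the *prde-1* list and 5 in the wild type list. The difference was *her-1*, the secreted male-determining signal that the SDC proteins repress in XX animals, with a peak of rank 12038 (86.0%) in the wild type list and none in the *prde-1* list. The highest-ranked was *tra-1*, the GLI-type factor at the end of the pathway, with rank 3480 in the *prde-1* list and 3635 in the wild type list. Both methyltransferase genes of lysine 20 of histone H4 had a 5′ end peak in both lists, *set-4* at rank 1267 in the *prde-1* list and 1381 in the wild type list. Of 6 COMPASS genes that work with DPY-30, 5 had a 5′ end peak in both lists, with *set-16* the strongest at rank 277 in the *prde-1* list and 245 in the wild type list. The *ash-2* summit was nearer to the 5′ end of Y17G7B.20 and the *rbbp-5* summit to that of *tpp-2*, in both lists. A list of 7 genes was drawn up by name for germline repression of X genes, and the role of each gene was not tested. All 7 had a 5′ end peak in the *prde-1* list and 6 in the wild type list. The exception was *mes-2*, the H3K27 methyltransferase, with a 5′ end peak at rank 7738 (80.0%) in the *prde-1* list and only a body peak in the wild type list. The histone variant gene *htz-1* had the highest rank of that list, 1273 in the *prde-1* list and 311 in the wild type list, but its wide peak was centered nearer to *chat-1*. The *mrg-1* summit was nearer to the 5′ end of *spcs-2* in both lists. Over all of these lists, 22 of 32 genes had a 5′ end peak in the *prde-1* list and 22 in the wild type list, against 25.1% (*prde-1*) and 30.6% (wild type) of all protein-coding genes.

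**Figure D5:**
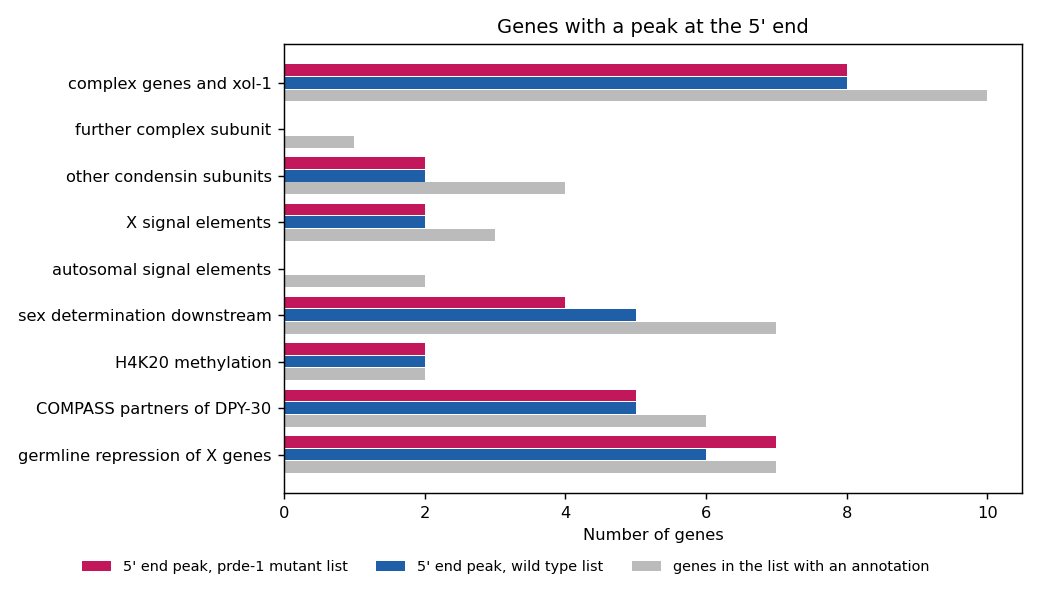
Number of genes with a peak at the 5′ end (x axis) in the *prde-1* list and in the wild type list, above the number of annotated genes in each list (grey), for the 10 genes and for the other lists of the pathway. The counts of the 2 peak lists differ by 1 gene in sex determination (4 *prde-1*, 5 wild type) and by 1 in germline repression of X genes (7 *prde-1*, 6 wild type), and are equal in the others.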

How the data were processed

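ATAC-seq of IGN from 3 *prde-1* mutant and 3 wild type samples was analyzed from 1 deposited peak list per genotype. Per the sources, the authors trimmed reads with cutadapt, aligned them to ce11 with Bowtie2, filtered and merged the replicates, and called peaks with Genrich (versions not given in the sources used here). They kept short fragments and shifted ends to the Tn5 cut. The deposited score is an area score of the peak caller and is not a plain sum of −log10 p over all bases. The deposited −log10 p is that at the summit, unadjusted, and a further deposited column gives the summit offset. The lists carry 0 columns per sample, so precision could not be estimated and no test was run. The study's differential peaks come from reads, which were not used here.

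Peaks were joined to Ensembl genes by at least 1 shared base, using Python 3.11.15, numpy 2.4.6, pandas 2.3.3 and matplotlib 3.10.9. The gene 5′ end is the outermost annotated start, and it was the same in RefSeq for 10 of 10 genes. A counterpart is the peak of the other list sharing the most bases. The joins were checked on simulated data with known answers. All 10 genes are named, in the pathway lists those with a 5′ end peak in only 1 peak list and the highest-ranked in each, and neighbors nearer to a summit than the gene itself. A gene or sequence outside that rule was chosen after its values were seen. The genes and lists were chosen with earlier results of these data known. Alternatives varied the window, the 5′ ends, the overlap, the ranking and the list size.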

Additional observations from a re-analysis of the deposited data

How the results depend on the processing

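Over 8 results, 43 alternatives were run. Counts stayed within 1.5 times the value reported, and medians within 1 SD over the genes, which for ranks is wide (28.8 points in the *prde-1* list and 20.1 in the wild type list) and could hide a shift. With 5′ end peaks alone the median rank in the wild type list was 24.3%, against 12.3% with body peaks included. The count of genes with a 5′ end peak ranged from 6 to 8 in the *prde-1* list and from 7 to 8 in the wild type list. A window of 250 bp dropped *dpy-27* from both lists and *sdc-2* from the *prde-1* list, and a summit required inside the window dropped *dpy-27* from both. The upper 50% of each list dropped *xol-1* from both, and equal list sizes of 9674 peaks dropped it from the wild type list only. In the upper 50%, the wild type peak without a counterpart was the intron peak of *mix-1* in place of that of *dpy-30*, which is not in the upper 50%. Median ranks of the best peaks ranged from 16.5% to 29.6% in the *prde-1* list and from 12.3% to 24.3% in the wild type list, and the median width ratio from 0.925 to 0.958. No paired analysis was possible because each genotype has 1 pooled list whose columns carry no replicate, and no sample could be left out for the same reason. The depth of the lists is unknown, so that a missing peak is not shown to be absent accessibility.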
